A study of Mus musculus with 12 samples.

Results

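The colony-stimulating factors are the secreted proteins that drive the growth, survival and activation of myeloid cells, and 7 genes are described here: the ligands Csf1, Csf2 and Csf3 and the receptor chains Csf1r, Csf2ra, Csf2rb and Csf3r. They were chosen by symbol and not by a rule on their values, though with earlier results of these data known. All 7 were found among the 49585 gene identifiers of the liver libraries and the 55401 of the macrophage libraries. In the files they are ENSMUSG00000014599 (Csf1), ENSMUSG00000018916 (Csf2), ENSMUSG00000038067 (Csf3), ENSMUSG00000024621 (Csf1r), ENSMUSG00000059326 (Csf2ra), ENSMUSG00000071713 (Csf2rb) and ENSMUSG00000028859 (Csf3r). RNA sequencing of polyA RNA from C57BL/6 mice gave 12 libraries in 4 groups of 3. Liver came from untreated mice, titled WT in the labels, or from mice given LPS for 2 h. LPS is lipopolysaccharide, the bacterial outer-membrane component sensed by TLR4. Peritoneal macrophages were infected for 72 h with a lentivirus carrying either the control hairpin shRNA-NC (shNC) or a hairpin directed at Gm26917, a long non-coding RNA (shGm26917), and both groups then received LPS for 2 h, so no macrophage library is without LPS or without lentivirus. The labels give no age, sex or LPS dose, and nothing in them says that replicates are separate animals or cultures, so p-values measure only the spread between these samples.

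CSF1 (M-CSF) signals through CSF1R, a receptor tyrosine kinase that macrophages need to survive and that also binds IL-34. CSF2 (GM-CSF) binds an alpha chain, encoded by Csf2ra, which pairs with the signalling beta chain encoded by Csf2rb. The beta chain is shared with the IL-3 and IL-5 receptors, and mice carry a nearly identical second copy, Csf2rb2, that serves the IL-3 receptor. CSF3 (G-CSF) binds the homodimeric receptor CSF3R on neutrophils and their precursors. The CSF2 and CSF3 receptors act through JAK kinases and STAT factors, and CSF1R through its own kinase, adaptors and Src-family kinases.

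The ligand transcripts share a feature that the choice of genes did not use: AU-rich stretches with the pentamer ATTTA (written here with T for U) in the 3′ untranslated region, where proteins such as tristetraprolin bind and hasten decay of cytokine mRNAs. The stretch of 30 bases richest in the pentamer is shown for each ligand because clusters of it set Csf2 and Csf3 apart from the receptor chains. For Csf1 the margin over Csf1r was only 2 against 1, and Il34, the other CSF1R ligand, had at most 1. Per kb, the longest Csf1 forms had 1.90 pentamers and the Csf1r forms 3.06 and 1.80. ATTTA is in capitals, 5′ to 3′ on the transcript strand, from GENCODE transcripts on GRCm38. Csf1 is on the minus strand (chr3:107741109-107741138), Csf2 on the minus strand (chr11:54247329-54247358) and Csf3 on the plus strand (chr11:98702984-98703013), and each stretch lies within the 3′ untranslated part of an exon.
Csf1: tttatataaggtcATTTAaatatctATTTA
Csf2: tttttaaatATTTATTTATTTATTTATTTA
Csf3: gatagtttATTTAtctctATTTAatATTTA

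The Csf2 stretch held 5 overlapping pentamers, the Csf3 stretch 3 and the Csf1 stretch 2. Among the longest 3′ untranslated regions of 20848 protein-coding genes, 0.273% had a 30-base stretch with at least 5, 2.59% had one with at least 3, and 18.9% had one with at least 2. Over its whole 3′ untranslated region Csf2 had 9 pentamers in 317 bases, Csf3 had 6 in 669 bases and the longest Csf1 form had 4 in 2111 bases. The shorter Csf1 forms had 0, Csf1r forms had 2 or 3, never more than 1 within 30 bases, and no annotated form of Csf2ra, Csf2rb or Csf3r had any. A match describes these letters and is not a measured binding site.

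In liver, LPS was accompanied by higher transcript levels of 2 ligands and 3 receptor chains. Csf3 was 124-fold and Csf1 13.4-fold higher than in untreated liver, Csf3r was 12.7-fold higher, Csf2ra 3.07-fold and Csf2rb 2.08-fold. Csf1r, the macrophage receptor for CSF1, had a lower mean that did not pass the test, and Csf2 was nearly undetected. With edgeR's quasi-likelihood test and Benjamini-Hochberg adjustment over 13869 tested genes, called at an adjusted p under 0.05, 5 of the 6 tested members were higher and 0 lower, where 45.3% of all tested genes were called, 23.3% as higher and 22.1% as lower. The groups of 5 of the 6 did not overlap, as for 57.8% of all tested genes. Csf3, with 2, 8 and 1 counts without LPS, passed the low-count filter only through its LPS libraries. Its direction and its lack of overlap therefore followed from the filter.

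Csf3 (chr11:98701263-98703629, plus strand) was close to absent from untreated liver, with 0.0910, 0.371 and 0.0434 CPM (counts normalised to library sizes scaled by the TMM method), from 2, 8 and 1 counts. After LPS the 3 livers had 33.8, 13.9 and 16.3 CPM. The groups did not overlap, and LPS replicate 1 was the highest of the 6. The log2 fold change was 6.95 ± 0.62 (SE, n = 3 and 3; edgeR adjusted p = 5.70e-05). The ratio of the summed counts was 127, with a 95% counting interval from 70.9 to 256. The size of this difference rests on few control counts: without untreated replicate 2 the log2 fold change was 8.16.

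Csf1 (chr3:107741048-107760469, minus strand) was already expressed in untreated liver, at 9.83, 8.57 and 13.9 CPM, and reached 225, 98.9 and 108 CPM after LPS. The lowest LPS liver was 7.14 times the highest untreated one, and LPS replicate 1 again stood above the other two. Csf1 rose by 3.74 ± 0.37 on the log2 scale (SE; edgeR adjusted p = 0.00011). Il34, the other ligand of CSF1R, had 2.09, 2.04 and 2.95 CPM in untreated liver and 3.51, 3.99 and 3.73 CPM after LPS, a log2 difference of 0.66 whose edgeR adjusted p of 0.0767 missed the threshold. Within each library the counts of Csf1 were 4.53 ± 0.28 (SD, n = 3) times those of Il34 without LPS and 39.3 ± 21.6 times with it. That ratio did not overlap between groups (exact permutation test, 2-sided, p = 0.1, the smallest that 3 against 3 can give).

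Csf2 (chr11:54247271-54249667, minus strand) had 0 counts in all 3 untreated livers and 13, 0 and 1 counts after LPS. Of the 14 counts, 13 came from LPS replicate 1, the library with the most Csf1 and Csf3. Csf2 did not pass the filter on low counts and was not tested. Against a floor of 3 counts over the untreated group its level after LPS was at least 6.24-fold higher when the 14 counts are taken as exact, and the exact 95% counting interval of the ratio starts at 4.44. Neither bound covers the spread between livers, and without LPS replicate 1 a single count remained. Its edgeR adjusted p was 0.0235 without that filter and 0.153 with all 12 libraries in 1 fit. The groups overlapped at 0.

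Csf3r (chr4:126024550-126044440, plus strand) had 1.18, 1.62 and 3.26 CPM in untreated liver and 26.1, 26.6 and 24.4 CPM after LPS. The 3 LPS livers lay within 1.09 times of each other, the tightest LPS group of the 6 tested members, and far above the controls. Csf3r rose by 3.66 ± 0.35 on the log2 scale (SE; edgeR adjusted p = 8.33e-05). Genes that mark neutrophils, the cells best known for this receptor, were also higher. Of 13 tested neutrophil markers 11 rose and 1 (Cxcr4) fell, where 23.3% and 22.1% of all tested genes did. The markers had a median log2 fold change of 6.00 against -0.06 over all tested genes. Markers nearly absent without LPS, such as Retnlg, passed the low-count filter through the LPS group, which set their direction. The tally and the median rest partly on such genes. Their summed level went from 15.7–69.9 to 2291–3183 CPM, most of it Lcn2, which hepatocytes can also make, while Retnlg rose from a mean of 0.223 to 17.8 CPM and S100a8 from 0.803 to 80.9 CPM. Ly6g had 0 counts in every untreated liver and 11, 16 and 6 counts after LPS. The part of these markers in the Csf3r difference was not tested. In bulk tissue, a change in the number of cells of a type cannot be told apart from a change in RNA per cell.

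Csf2ra (chr19:61223957-61228429, minus strand) had 5.73, 5.01 and 5.73 CPM in untreated liver and 17.4, 18.4 and 14.8 CPM after LPS. Its log2 fold change was 1.62 ± 0.19 (SE; edgeR adjusted p = 0.000258), and both groups were narrow and apart. The partner chain Csf2rb (chr15:78325752-78353847, plus strand) had 8.74, 3.89 and 5.64 CPM and then 11.8, 15.9 and 10.4 CPM. The 2 groups did not overlap, but the gap between untreated replicate 1 and LPS replicate 3 was small. The log2 fold change was 1.06 ± 0.31 (SE; edgeR adjusted p = 0.0233). That call was lost without untreated replicate 2 (log2 fold change 0.79, adjusted p = 0.0703), without LPS replicate 2 (0.87, adjusted p = 0.0840) and when libraries were scaled by their totals alone (0.60, adjusted p = 0.183, where the median of all tested genes was -0.49). The log2 ratio of Csf2rb to Csf2ra counts was 0.07 ± 0.49 (SD, n = 3) without LPS and -0.43 ± 0.19 with it (exact permutation test, 2-sided, p = 0.2).

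Csf1r had 39.8, 38.7 and 27.6 CPM in untreated liver and 7.21, 28.5 and 22.4 CPM after LPS. LPS replicate 1 was far below the rest and LPS replicate 2 lay inside the untreated range. The log2 difference of -0.87 ± 0.42 (SE) did not pass (edgeR adjusted p = 0.124), and without LPS replicate 1 it was -0.46 (adjusted p = 0.157). The same library was lowest for the 11 markers of Kupffer cells, the resident liver macrophages, whose summed level was 190 CPM in LPS replicate 1, 487 and 386 CPM in LPS replicates 2 and 3, and 439–504 CPM in untreated liver. Of those markers 1 (Marco) was called higher and 2 (Cd163 and Slc40a1) lower, where 23.3% of all tested genes were called higher and 22.1% lower. The part of these markers in the Csf1r difference was not tested. Csf1r passed in 2 of 14 alternative fits, with library totals alone (-1.31, adjusted p = 0.0317) and without the low-count filter (-0.86, adjusted p = 0.0426). Hmgxb3, on the opposite strand, shares 873 exonic bases with Csf1r and had 914 counts over the liver libraries. Csf1r itself had 2343 counts without LPS and 983 with it, and whether the counting separated strands is not known.

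**Figure D1:**
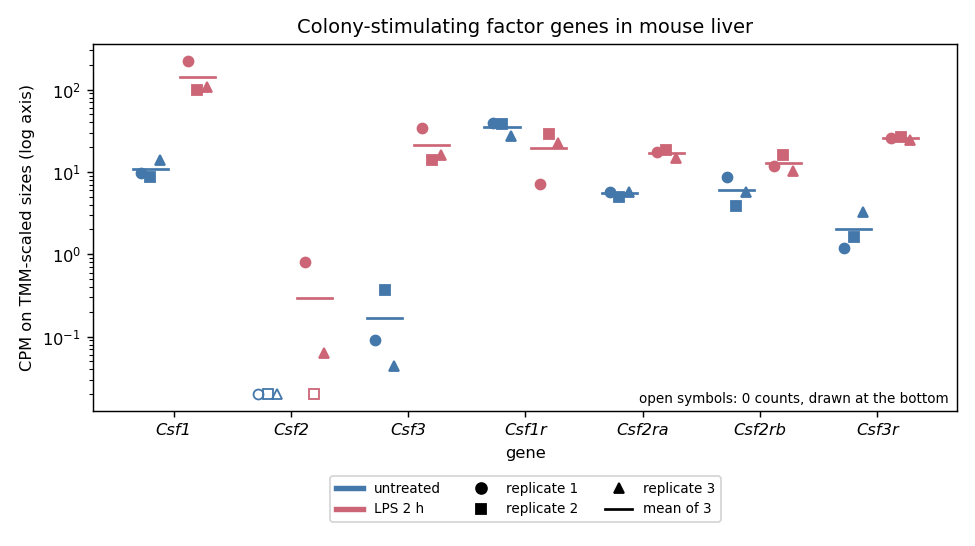
Level of each member in the 6 liver libraries, in CPM on TMM-scaled sizes on a log axis. Symbols are replicates, horizontal bars are means of 3, and open symbols mark 0 counts. Csf1, Csf3, Csf2ra, Csf2rb and Csf3r are higher in all 3 LPS livers than in any untreated one, and LPS replicate 1 is the highest for Csf1, Csf2 and Csf3 and the lowest for Csf1r.

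To compare genes with each other, levels were divided by the length of their merged exons (CPM per kb). In untreated liver the order by mean level was Csf1r at 6.12 ± 1.17 CPM per kb (SD, n = 3), Csf1 at 2.04 ± 0.52, Csf2ra at 1.91 ± 0.15, Csf2rb at 0.837 ± 0.337, Csf3r at 0.560 ± 0.303, Csf3 at 0.119 ± 0.125 and Csf2 at 0. Csf1 and Csf2ra did not differ beyond their spread, nor did Csf2rb and Csf3r. After LPS the order by mean was Csf1 at 27.3 ± 13.3 CPM per kb, Csf3 at 15.1 ± 7.68, Csf3r at 7.13 ± 0.32, Csf2ra at 5.87 ± 0.64, Csf1r at 3.36 ± 1.90, Csf2rb at 1.75 ± 0.39 and Csf2 at 0.366 ± 0.567. Csf1 and Csf3 overlapped in spread, as did Csf1r and Csf2rb. Csf1r thus went from 56.5–71.0% of the summed receptor level to 7.72–23.6%, and Csf3r from 3.15–10.7% to 35.3–44.8%. Among the ligands Csf1 made up 86.1–98.8% of the sum without LPS and 63.1–65.5% with it, nearly the same in each of the 3 LPS livers although their ligand sums ranged from 28.6 to 67.5 CPM per kb.

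The promoters of Csf1 and Csf3r are shown because both genes rose over 12-fold in liver. They are taken from RefSeq promoter windows (250 bases before to 50 after the start, GRCm38.p6), restricted to the part upstream of the annotated transcript, and read 5′ to 3′ on the gene's strand. Capitals mark matches on either strand to an NF-kB-like pattern (3 G, any 5 bases, then 2 C), where overlapping matches run together. The Csf1 part is chr3:107760470-107760719 on the minus strand and the Csf3r part is chr4:126024409-126024549 on the plus strand.
Csf1: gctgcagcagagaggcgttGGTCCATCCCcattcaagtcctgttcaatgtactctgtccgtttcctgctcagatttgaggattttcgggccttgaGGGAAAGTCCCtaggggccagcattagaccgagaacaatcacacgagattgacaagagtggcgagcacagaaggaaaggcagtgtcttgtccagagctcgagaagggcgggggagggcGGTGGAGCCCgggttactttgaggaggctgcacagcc
Csf3r: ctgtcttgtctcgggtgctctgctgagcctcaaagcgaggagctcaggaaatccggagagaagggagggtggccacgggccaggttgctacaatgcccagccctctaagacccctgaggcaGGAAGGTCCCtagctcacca

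Over the full windows Csf1 had 5 matches to that pattern and Csf3r had 3. The pattern is loose: 50.8% of 32851 promoter windows held it, as did all 4 members with a window (Csf1, Csf2, Csf2ra and Csf3r). The PU.1-like pattern GAGGAA was in the windows of Csf2ra and Csf3r and in 28.3% of all windows. The C/EBP-like pattern TTGCNNAA was in the Csf2 window and in 10.8% of all. None of the 4 windows held the AP-1-like TGANTCA (7.81% of all), TATAAA (13.6% of all) or the CK-1 pattern of cytokine promoters (GAGATT, then CC, any base and C, 0.183% of all), which says only that these letters are not in those windows. The whole RefSeq window for Csf2 (chr11:54249850-54250149, minus strand) lies upstream of its GENCODE start at 54249667. The bases next to that start were therefore not searched for any of these patterns. A match is a description of letters and not a site shown to be bound.

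In LPS-treated macrophages the hairpin against Gm26917 went with far lower levels of the CSF2 and CSF3 ligand transcripts and with more of 2 receptor chains. Csf3 was 76.3-fold and Csf2 42.8-fold lower than with the control hairpin, while Csf1r was 2.49-fold and Csf2rb 2.21-fold higher. Csf1, Csf2ra and Csf3r did not pass the test. By the same edgeR test over 12876 genes, 2 of 7 members were called higher and 2 lower, where 23.7% of all tested genes were called, 12.6% as higher and 11.1% as lower. The groups of 4 members did not overlap, as for 45.9% of all tested genes. Gm26917 itself was not analysed here in these libraries, so the effect of the hairpin on its target was not checked.

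Csf3 was among the most abundant transcripts of the control macrophages, at 1177, 617 and 2417 CPM, between 0.0551 and 0.208% of all counts. With the Gm26917 hairpin it fell to 25.8, 9.36 and 20.0 CPM. The highest of these was far below the lowest control, although the control libraries themselves spanned 3.92-fold. The log2 fold change was -6.25 ± 0.69 (SE, n = 3 and 3; edgeR adjusted p = 0.00372), the rank of 31 among all tested genes ordered from the largest fall. Per kb, Csf3 went from the 99.7th to the 74.7th percentile of tested genes.

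Csf2 had 88.4, 42.0 and 239 CPM with the control hairpin and 4.53, 1.26 and 2.78 CPM with the Gm26917 hairpin. The libraries ranked alike for Csf2 and Csf3, with control replicate 3 the highest and control replicate 2 the lowest, and with shGm26917 replicate 1 above replicates 3 and 2. The log2 fold change was -5.42 ± 0.81 (SE; edgeR adjusted p = 0.00726). Without control replicate 3 the fold changes were smaller, -4.51 for Csf2 (22.8-fold) and -5.62 for Csf3 (49.1-fold), and both still passed. Csf3 counts were 12.7 ± 2.36 (SD, n = 3) times Csf2 counts with the control hairpin and 6.77 ± 0.94 times with the other, without overlap (exact permutation test, 2-sided, p = 0.1, the smallest possible here). That ratio was chosen after its values were seen. An antisense gene, Gm12223, shares 96 exonic bases with Csf2 and had 66 counts over the 6 macrophage libraries, and no source used here says whether the counting separated strands.

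Csf1, in contrast to these, had 48.2, 78.9 and 56.4 CPM with the control hairpin and 42.2, 61.4 and 66.8 CPM with the other. The ranges overlapped almost fully, with a log2 difference of -0.11 ± 0.24 (SE; edgeR adjusted p = 0.774) whose sign turned with library totals alone (0.19), without control replicate 2 (0.10) and without shGm26917 replicate 1 (0.07). Il34 had 5 counts in all control macrophages together and 3 in the others, too few to test.

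Csf1r had 1150, 1063 and 803 CPM with the control hairpin and 2462, 2751 and 2292 CPM with the Gm26917 hairpin. Each group was narrow, and the lowest of the second was 1.99 times the highest of the first. Csf1r rose by 1.32 ± 0.20 on the log2 scale (SE; edgeR adjusted p = 0.00782), and it stayed between 1.17 and 1.6, and called, in 14 of 14 alternative fits. Csf1r shares 873 exonic bases with Hmgxb3 on the opposite strand, a gene with 4434 counts in these libraries against 44792 for Csf1r in the controls and 139036 in the others. The 10 peritoneal macrophage markers each had counts in every macrophage library. They summed to 7837–10906 CPM with the control hairpin and 14832–24122 CPM with the other, mostly Lyz2. Of them 3 (Cd93, Cd68 and Lyz2) rose and 0 fell, where 12.6% of all tested genes were called higher and 11.1% lower. Of 11 tested monocyte and macrophage markers 2 rose and 2 fell, with a median log2 fold change of -0.09. The 2 that rose were again Cd68 and Lyz2, which are on both lists. Gata6, Icam2, Timd4, Selp and Prg4 from the peritoneal list were tested and not called. The part of these markers in the Csf1r difference was not tested.

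Csf2rb had 888, 928 and 773 CPM and then 2262, 1792 and 1680 CPM. The groups were well apart, with a log2 fold change of 1.15 ± 0.19 (SE; edgeR adjusted p = 0.00914) that was called in 14 of 14 alternative fits. Its partner Csf2ra had 683, 381 and 587 CPM with the control hairpin and 593, 693 and 702 CPM with the other, a log2 difference of 0.27 ± 0.23 (SE; edgeR adjusted p = 0.434). The log2 ratio of Csf2rb to Csf2ra counts was 0.69 ± 0.52 (SD, n = 3) and 1.52 ± 0.36, and the groups overlapped (exact permutation test, 2-sided, p = 0.2). With 3 against 3 that test cannot give a p below 0.1, so it cannot decide whether the 2 chains differed in response.

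Csf3r had 211, 411 and 198 CPM with the control hairpin and 263, 409 and 267 CPM with the Gm26917 hairpin. Replicate 2 was highest in each group and the ranges overlapped. The log2 difference was 0.20 ± 0.33 (SE; edgeR adjusted p = 0.695). It passed only without control replicate 2 (0.60, adjusted p = 0.0497), and it turned slightly negative without shGm26917 replicate 2 (-0.04).

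**Figure D2:**
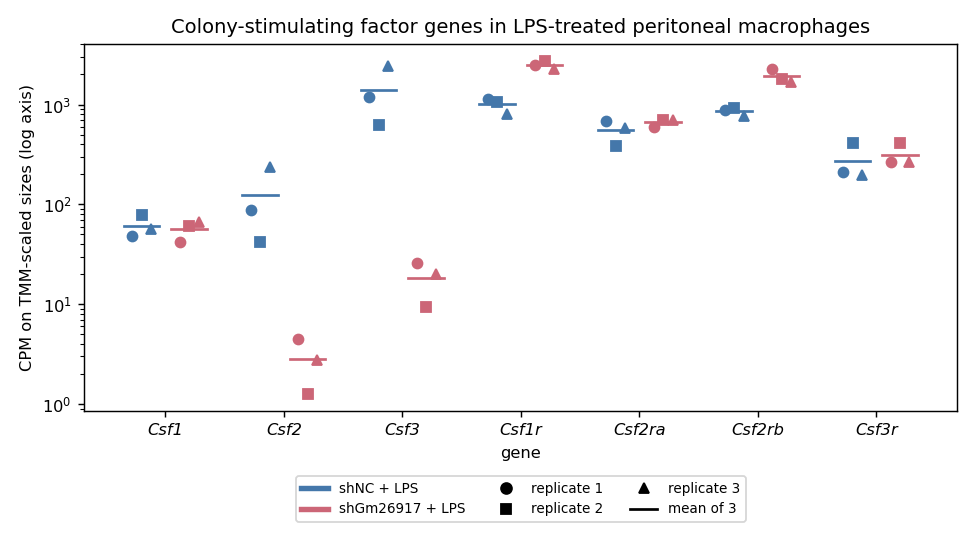
Level of each member in the 6 macrophage libraries, all given LPS, in CPM on TMM-scaled sizes on a log axis, with symbols for replicates and bars for means of 3. Csf2 and Csf3 lie far lower with the Gm26917 hairpin, Csf1r and Csf2rb lie higher, and Csf1, Csf2ra and Csf3r overlap.

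Other cell types were looked for in the macrophage libraries. Control replicate 2, which had the least Csf2, Csf3 and Csf2ra and the most Csf1 and Csf3r of its group, also had the highest summed B cell markers (629 CPM, against 299 and 199 in the other controls), T and NK cell markers (38.0 against 12.1 and 11.1) and mast cell and eosinophil markers (50.7 against 8.51 and 3.04). With the Gm26917 hairpin these sums were 121–296, 13.3–16.8 and 4.73–8.05 CPM. The neutrophil markers Ly6g, Retnlg and Ngp were at 0 in all 6. Of 7 tested neutrophil markers 2 rose and 3 fell, among them Lcn2, where 12.6% and 11.1% of all tested genes were called. Markers of stellate cells, fibroblasts and mesothelium summed to 22.2–27.8 CPM with the control hairpin and 4.0–5.16 CPM with the other. The control sums were carried by Pdgfrb in replicates 1 and 3 and by Dcn in replicate 2, with Lrat at 0. Only 3 of these 11 markers were tested, with 0 called higher and 0 lower. Among the controls the sum was highest in replicate 2, which had the least Csf2 and Csf3. The part of these cell types in the Csf2 and Csf3 differences was not tested. Without control replicate 2, Csf2, Csf3, Csf1r and Csf2rb kept their calls and Csf3r was the only member added.

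In CPM per kb, the macrophages with the control hairpin had Csf3 at 994 ± 652 (SD, n = 3), Csf2ra at 192 ± 53.8, Csf1r at 174 ± 31.2, Csf2 at 154 ± 129, Csf2rb at 119 ± 11.1, Csf3r at 75.7 ± 33.0 and Csf1 at 11.6 ± 3.01. Each gene from Csf2ra to Csf3r in that order overlapped with its neighbours among them. With the Gm26917 hairpin the order was Csf1r at 433 ± 40.2, Csf2rb at 263 ± 42.5, Csf2ra at 231 ± 21.1, Csf3r at 86.8 ± 23.0, Csf3 at 13.0 ± 5.90, Csf1 at 10.8 ± 2.46 and Csf2 at 3.57 ± 2.05. Csf2rb and Csf2ra overlapped there, as did Csf3 and Csf1. Csf3 made up 84.7–87.5% of the summed ligand level with the control hairpin and 33.4–57.2% with the other, and Csf1 went from 0.529–2.96% to 25.0–58.6% as the sum dropped from 504–2020 to 19.8–31.9 CPM per kb. The summed receptor level was 505–618 CPM per kb with the control hairpin and 946–1078 with the other.

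**Figure D3:**
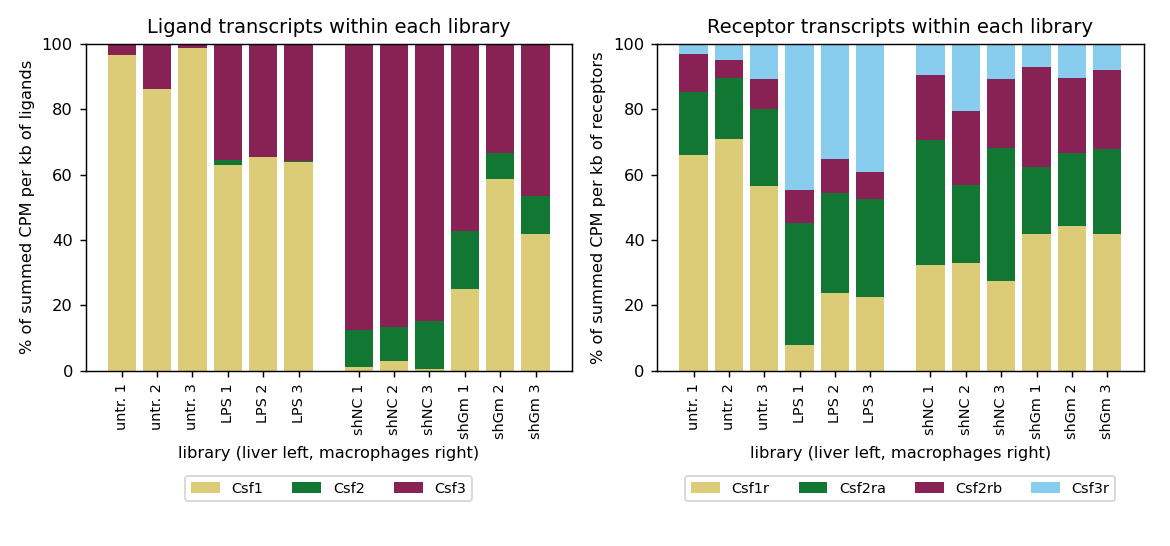
Make-up of the ligand transcripts (left) and receptor transcripts (right) in each of the 12 libraries, as a percentage of their summed CPM per kb. Csf1 dominates the ligands in untreated liver and Csf3 those of the control macrophages (84.7–87.5%), while the receptor bars shift from Csf1r to Csf3r in LPS liver.

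The beta chain and its copy Csf2rb2 share parts of their sequence, which bears on both values. Their aligned coding sequences were identical at 2505 of 2631 bases (95.2%), the longest identical run was 242 bases, and 18.4% of all 50-base pieces of the longest Csf2rb transcript, 6.96% of its 100-base pieces and 3.47% of its 150-base pieces also occur in Csf2rb2. Most pieces of these lengths are thus found in 1 of the copies only. The least alike stretch of 120 coding bases is shown to make visible where reads can separate them, with the 22 differing bases in capitals, from GENCODE transcripts at coding bases 309–428 of Csf2rb and 312–431 of Csf2rb2, both on chromosome 15.
Csf2rb: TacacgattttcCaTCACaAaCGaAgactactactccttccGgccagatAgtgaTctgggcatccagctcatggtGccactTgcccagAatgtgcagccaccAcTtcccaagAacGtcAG
Csf2rb2: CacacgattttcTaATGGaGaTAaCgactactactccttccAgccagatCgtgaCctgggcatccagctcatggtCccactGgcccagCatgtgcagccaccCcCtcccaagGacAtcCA

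Csf2rb2 moved the same way as Csf2rb in both comparisons, with values that reads shared between the copies could blur. In liver it had 2.32, 0.881 and 1.82 CPM without LPS and 7.15, 7.27 and 6.01 CPM with it, a log2 fold change of 2.02 ± 0.35 (SE; edgeR adjusted p = 0.00216). In macrophages it had 690, 730 and 655 CPM and then 1553, 1299 and 1089 CPM, a log2 fold change of 0.93 ± 0.18 (SE; edgeR adjusted p = 0.0149). The groups did not overlap in either tissue, but the macrophage call was lost in 4 of 6 fits that left out a library (adjusted p from 0.0504 to 0.0631 in those). The count ratio of Csf2rb to Csf2rb2, chosen after its values were seen, was 3.76 ± 0.66 (SD, n = 3) in untreated liver and 1.86 ± 0.29 after LPS, and 1.25 ± 0.06 and 1.46 ± 0.08 in the 2 macrophage groups. Neither pair of groups overlapped (exact permutation test, 2-sided, p = 0.1 in each tissue).

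Of the other chains, Il3ra, the alpha chain of the IL-3 receptor, had 3.50, 2.36 and 3.04 CPM in untreated liver and 12.2, 5.10 and 6.96 CPM after LPS. It rose by 1.44 ± 0.35 (log2, SE; edgeR adjusted p = 0.0104), a call lost with library totals alone (adjusted p = 0.0525). In macrophages Il3ra had a log2 difference of -0.06 (adjusted p = 0.794). Il5ra, the alpha chain of the IL-5 receptor, had 2 counts over all liver libraries and a log2 difference of -0.57 in macrophages (edgeR adjusted p = 0.609). Il5 had 0 counts in every library, and Il3 had 1 count in 1 control macrophage library.

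**Figure D4:**
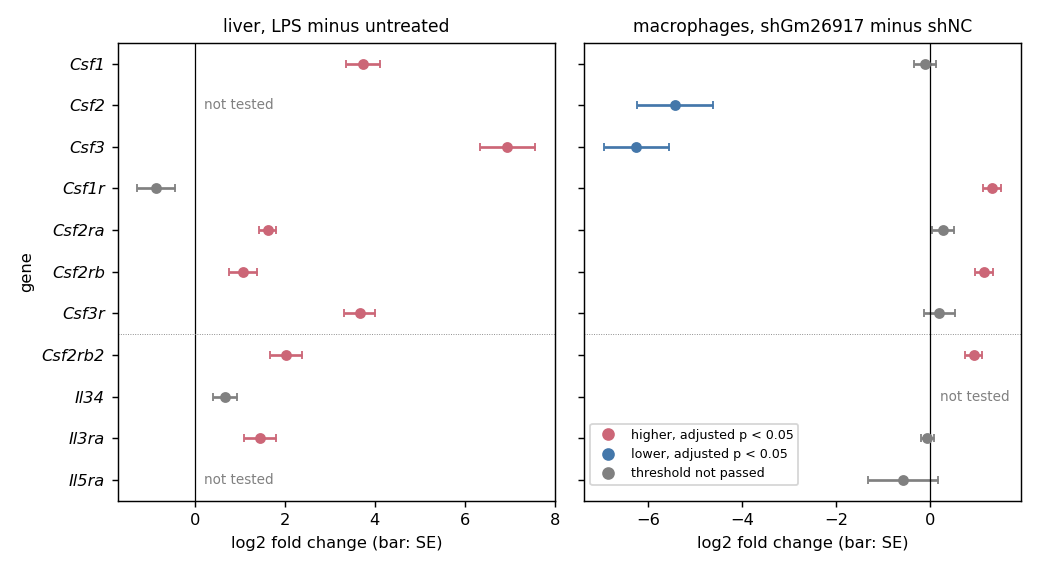
Log2 fold changes with SE bars from edgeR for the members (above the dotted line) and related genes (below), for liver on the left and macrophages on the right. Csf3 lies at 6.95 in LPS liver and at -6.25 with the Gm26917 hairpin, 2 separate contrasts that were not tested against each other, and Csf2 was not tested in liver.

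Genes with a pattern most like each called member were found by the root mean square difference of centred log2 CPM over the 6 libraries of a tissue, as a description. In liver the nearest to Csf1 were Stap2 (0.13), Vcam1 and Parp10, to Csf3 Ikbke (0.36), Dusp2 and Tgtp1, and to Csf2ra Opn3 (0.04), Kars and Ncf1. Csf2rb was nearest to Trib1 (0.08), Klf7 and Gm1966, and Csf3r to Cish (0.17), Xdh and Gcnt2. In macrophages Ptgs2, which encodes the inducible prostaglandin synthase COX-2, was nearest to both Csf2 (0.17) and Csf3 (0.54). Cxcl1 and Loxl2 followed for Csf2, and Slco3a1 and Il6 for Csf3. Csf1r was nearest to Osgep (0.07), Slc25a45 and Pygl, and Csf2rb to Mpv17 (0.09), Acap3 and Borcs5.

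The JAK-STAT genes that act downstream of the CSF2 and CSF3 receptors, and their feedback inhibitors, were mostly higher in LPS liver. Of 20 tested, 15 rose and 1 fell, with a median log2 fold change of 2.04 against -0.06 over all tested genes, of which 23.3% rose and 22.1% fell (13 and 3 of the list with library totals alone). The largest rises were in the inhibitors Socs1 (8.62), Socs3 (6.12) and Cish (3.58), all edgeR adjusted p under the threshold, and the gene that fell was the phosphatase Inpp5d (-1.42). These genes respond to many cytokines besides CSF2 and CSF3. In macrophages 0 of the same 20 rose and 6 fell, with a median of -0.43 against -0.00 over all, where 12.6% of all tested genes were called higher and 11.1% lower. With library totals alone 3 rose and 5 fell, without control replicate 2 3 rose and 8 fell, and with the replicate block, as in 4 of the fits that left out another library, 0 rose and 4 fell. The largest falls there were in Socs1 (-2.44), Jak2 (-2.22), the kinase of both receptors, and Socs3 (-2.18).

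Genes of CSF1R signalling, trafficking and shedding had calls in both directions in each tissue. In liver 6 of 21 tested rose, among them the kinases Fgr (2.71) and Pik3cd (2.40), and 3 fell, the adaptor Pstpip2 (-1.75), the ubiquitin ligase Cbl (-0.99) and the exchange factor Sos1 (-0.95), where 23.3% and 22.1% of all tested genes were called higher and lower. The calls of Pstpip2 and Cbl were each lost without 1 LPS library, and with library totals alone the list had 3 higher and 4 lower. In macrophages 6 of 22 rose and 2 fell, with a median of 0.03, where 12.6% and 11.1% of all tested genes were called. The counts were 10 and 1 with library totals alone, 9 and 3 without control replicate 2, 1 and 0 without shGm26917 replicate 2 and 2 and 0 without shGm26917 replicate 3. Fgr rose by 2.78, the receptor Trem2 by 2.39 and the adaptor Gab3 by 2.29, and the kinases Lyn (-1.03) and Pik3cg (-0.68) fell. Of these 5 genes only Fgr was called in every fit that left out a library.

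Myeloid transcription factors, among them the regulators of Csf1r, Csf2ra and Csf3r, were higher in liver for 8 of 17 tested and lower for 2, where 23.3% and 22.1% of all tested genes were called. Cebpd rose by 3.51, Egr2 by 3.27 and Irf8 by 2.71 on the log2 scale, and Maf, a factor of resident macrophages, fell by 1.54. In macrophages 2 of 17 rose, Cebpa by 1.82 and Egr2 by 1.61, and 0 fell, where 12.6% and 11.1% of all tested genes were called higher and lower. The count depended on the fit, with 5 higher and 0 lower with library totals alone, 4 and 4 with DESeq2, and 6 and 4 without control replicate 2. The Egr2 call there was lost without shGm26917 replicate 3 (adjusted p = 0.0536). Spi1, which encodes PU.1, was not among the called genes in either tissue.

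Factors listed for decay or stability of AU-rich cytokine mRNAs were higher in liver for 5 of 10 and lower for 2. Their median was 0.49, and with library totals alone 3 were higher and 3 lower. Not all of them are known to bind the ATTTA stretches shown for the ligands, and binding was not tested. The RNase gene Zc3h12a rose by 3.63, Zfp36, which encodes tristetraprolin, by 2.19 and the stabilising factor Elavl1 by 1.15, while Zfp36l2 (-2.87) and Khsrp (-0.49) fell, the last a call lost in 6 of 14 alternative fits. Over all tested liver genes 23.3% were called higher and 22.1% lower. In macrophages 1 rose and 4 fell, with a median of -0.34, against 12.6% and 11.1% of all tested genes. With library totals alone 2 rose and 1 fell, without control replicate 2 1 rose and 6 fell, and without any 1 of the Gm26917 hairpin libraries 0 rose and 1 fell. With all 6 libraries and TMM scaling, Zc3h12a (-2.73), Zfp36 (-1.55) and Zfp36l1 (-1.26) fell most, and Zfp36l2 (0.89) rose. Zc3h12a kept its call in every alternative fit, whereas Zfp36, Zfp36l1 and Zfp36l2 each lost theirs when single libraries were left out. Among the factors named for both comparisons, Zc3h12a and Zfp36 changed in the same direction as Csf3 in each. Zfp36l2 changed in the opposite direction to Csf3 in each.

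**Figure D5:**
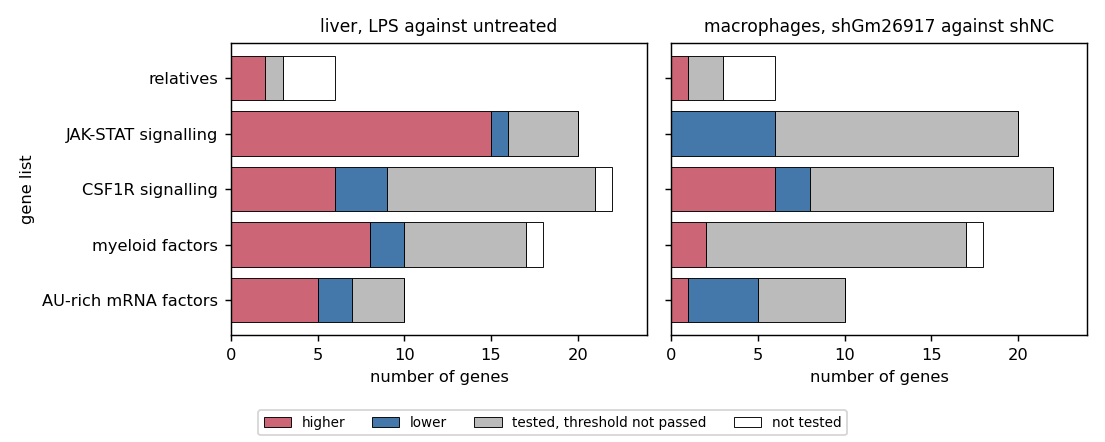
Number of genes called higher, called lower, tested without passing the threshold and not tested in each of 5 lists around the colony-stimulating factors, for liver on the left and macrophages on the right. The JAK-STAT list holds 15 higher and 1 lower genes in liver and 0 higher and 6 lower in macrophages, with TMM scaling.

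Total counts per library ranged from 17322770 to 20913964 in liver and from 15605311 to 18062853 in macrophages. Hepatocyte markers summed to 73579–132066 CPM in the liver libraries. Scaling by library totals alone shifted the genome-wide median on the log2 scale by -0.43 in liver and by 0.29 in macrophages, and the share of calls that were higher from 51.3% to 26.8% and from 53.1% to 79.8%. The remaining marker lists are read against the 23.3% higher and 22.1% lower calls of all tested genes in liver and the 12.6% and 11.1% in macrophages. In liver they had 5 of 12 monocyte and macrophage markers higher and 2 lower, 4 of 12 T and NK cell markers higher, 1 of 6 B cell markers lower, 3 of 10 sinusoidal endothelial markers higher and 5 lower, and 2 of 11 stellate, fibroblast and mesothelial markers lower. There, 5 of 10 peritoneal macrophage markers were also higher, and 1 of 10 hepatocyte markers was higher and 1 lower. The peritoneal list shares Adgre1, Itgam, Cd68 and Lyz2 with the monocyte and macrophage list, so those counts are not separate. In macrophages 2 of 11 monocyte and macrophage markers were higher and 2 lower, 1 of 10 Kupffer cell markers was higher and 1 of 5 sinusoidal endothelial markers lower.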

How the data were processed

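The authors deposited 1 table of raw counts per library, with 1 row per Ensembl gene identifier. STAR and featureCounts 1.6.3 on mm10 are named in the submitters' processing notes, and the annotation, strand setting and treatment of reads that map to several genes are named in none of the sources used here. Shared reads between near-identical genes, such as Csf2rb and Csf2rb2, could therefore raise or lower either count. Symbols came from the reference tables provided and matched 49326 liver and 55141 macrophage identifiers. Gene positions, exon lengths and transcripts came from GENCODE M21 on GRCm38, and promoters from RefSeq.

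Each tissue was fitted by itself with edgeR 4.0.16 in R 4.3.3: filterByExpr, TMM scaling, glmQLFit and glmQLFTest, 2-sided, Benjamini-Hochberg adjustment over all tested genes, called at an adjusted p under 0.05. DESeq2 1.42.0, limma 3.58.1 (voom), other scalings and filters, a replicate block, all 12 libraries in 1 fit and leaving out each library were alternatives. Ratios of counts within a library were taken on the counts with nothing added and were compared by an exact permutation test. Adding 0.5 to both counts was an alternative. Intervals and floors cover counting error only, since reads carry no molecular identifiers.

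The members, the 15 gene lists and the tests were chosen with earlier results of these data known. Text named all members and relatives, up to 3 called genes per direction from each pathway list, and the 3 tested genes with mean CPM of at least 1 whose centred log2 CPM (prior count 2) lay nearest to each called member. Some genes that this rule selects are not reported here. Marker genes named were chosen after their values were seen.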

Additional observations from a re-analysis of the deposited data

How the results depend on the processing

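Across 14 alternative fits per tissue, Csf1, Csf3, Csf2ra and Csf3r in liver, and Csf2, Csf3, Csf1r and Csf2rb in macrophages, kept their direction and stayed called. With library totals alone, 1943 genes were called higher and 5305 lower in liver, and 3135 and 794 in macrophages. In liver 1 member (Csf1r) was called lower with library totals alone and 1 (again Csf1r) without the low-count filter. With 1 library left out, macrophage calls ranged from 479 to 2715 higher, 360 to 2521 lower and 839 to 5236 in all. The most came without shNC replicate 2. Log2 differences of macrophage genes that missed the threshold changed sign with library totals alone for Csf1 (0.19) and Il3ra (0.24). With 1 library left out they ranged from -0.27 to 0.10 for Csf1, -0.17 to 0.029 for Il3ra, -0.037 to 0.60 for Csf3r and -1.07 to 0.38 for Il5ra. The cause of these changes was not tested.

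The labels do not say whether replicate numbers pair the samples. Correlations of same-numbered deviations were 0.12, 0.05 and -0.08 in liver and -0.04, 0.24 and 0.18 in macrophages. Those of differently numbered samples ran from -0.19 to 0.12 in liver and from -0.24 to 0.16 in macrophages. The highest macrophage values were same-numbered (replicates 2 and 3), so pairing there was not settled. With the replicate block, 3002 genes were called higher and 2752 lower in liver, and 1424 and 1170 in macrophages, and all 9 member calls were kept. Depth limits Csf2 in liver, with 0 counts in every untreated library.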
